A study of Mus musculus with 6 samples.

Results

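The cytosolic ribosomal protein genes were followed in LSK cells, marrow cells without lineage markers that carry c-KIT and SCA1 and include the blood stem cells and early progenitors. A gene was a member if GENCODE M21 lists it as protein-coding, its symbol is Rpl or Rps with a number (or Rplp0, Rplp1, Rplp2 or Rpsa), and its mean level over the 6 libraries was at least 10 CPM, a count scaled to the library's total reads in genes. Of the 55487 genes in the files, 77 had such a name and biotype and 73 also reached the level, 30 of the small subunit and 43 of the large. The lowest member averaged 38.0 CPM (Rps21) and the highest 1169 CPM (Rpl4). The 4 genes below the minimum were Rpl13a at 8.89, Rpl23a at 7.22, Rps10 at 4.17 and Rpl24 at 1.82 CPM, and they are left out of all counts of members. In the same order, 35.4%, 62.3%, 28.7% and 47.0% of their exon bases overlap another annotated gene. Reads ambiguous between genes, 6.2% to 6.5% of a library, were set apart in the counting. The levels of these 4 genes can therefore understate their mRNA, and by how much was not tested.

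The study compared 3 mice lacking Brm (BrmKO) with 3 wild-type (WT) mice, and each mouse gave a library. Brm is the older name of Smarca2, whose protein is one of the alternative ATPases of SWI/SNF, a complex that moves nucleosomes. The strain background of both groups is labelled C56Bl/6, no treatment is labelled, and the labels give no ages. Which part of Smarca2 was removed, and whether the mice of a group came from the same litter, are not stated either. Cells were sorted with antibodies into lysis buffer, and polyadenylated RNA was amplified with a full-length cDNA kit that keeps no strand and no molecular identifiers.

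The ribosome is built from ribosomal RNA and a set of proteins, most of them present once per ribosome, in either the small subunit, which reads the mRNA, or the large subunit, which joins the amino acids. Ribosomal protein mRNAs are among the most abundant in dividing cells. Most of them begin with a run of C and T bases, the 5′ terminal oligopyrimidine or TOP motif, through which mTOR and LARP1 control their translation. Blood formation is sensitive to the dose of these proteins: loss of a single copy of some of them causes Diamond-Blackfan anaemia in people, and blood stem cells keep their protein synthesis low. The counts used here measure mRNA and hold nothing on translation.

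The libraries held 28.0 to 36.5 M reads in genes. Smarca2 fell to 15.1% of its WT level in BrmKO, with 805, 761 and 958 reads in the BrmKO libraries, against 6284, 6932 and 4270 reads in the WT libraries (log2 fold change -2.72 ± 0.13, edgeR quasi-likelihood test, adjusted p = 2.97e-05). The summed level of 8 LSK markers was 3146, 3073 and 3072 CPM in the BrmKO libraries, against 2873, 3039 and 3104 CPM in the WT libraries. Most of this sum was Kit, Cd34 and Flt3. By gene, log2 fold changes ran from -0.42 for Slamf1 to 0.31 for Ly6a, with 5 above 0 and 3 below, and none passed. The groups did not overlap for Flt3, with 550, 543 and 520 CPM in BrmKO and 497, 467 and 517 CPM in WT. That held for 11.1% of all genes tested. Replicate 3 stood apart from the others in both genotypes: its reads in no counted feature were 9.29% in BrmKO and 8.41% in WT, against 5.79% to 6.61% in the other 4 libraries.

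Runs of C and T bases, the letters of the TOP motif, were counted around the members' annotated starts. RefSeq's GRCm38.p6 promoter windows of 300 bases, 250 before to 50 after a start, matched 54 of the 73 members by symbol. A run of at least 8 C or T bases lay between 30 bases before and 50 bases after a start in 43 of the 54 members (79.6%), against 32.2% of the 26971 other genes in the table. The sequence CCGGAAG, on either strand and anywhere in the 300 bases, was present in 42.6% of the members and in 9.86% of the other genes. The 6 windows of 30 bases below are shown because the results turn on these genes, with the longest run of C and T in capitals.
Rps6 (chr4:86857349-86857378, minus strand): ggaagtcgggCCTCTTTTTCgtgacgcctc
Rpl28 (chr7:4792953-4792982, plus strand): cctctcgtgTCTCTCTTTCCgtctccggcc
Rpl35 (chr2:39005115-39005144, minus strand): gccccgCCCTTTCCTCTTTCTCTCgaacca
Rps18 (chr17:33955647-33955676, minus strand): tcacttccgCTCTCTCTTCCacaggaggcc
Rps25 (chr9:44407684-44407713, plus strand): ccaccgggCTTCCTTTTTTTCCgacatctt
Rps3a1 (chr3:86142623-86142652, minus strand): acgtagacggcgCTCCCCgcccggctcgcg
The run was 10 bases long in Rps6, 11 in Rpl28 and Rps18, 14 in Rps25 and 18 in Rpl35. In Rps3a1 the longest run near the annotated start had 6 bases, under the minimum of 8. A match describes these letters only, and binding or use of a start was not measured.

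The share of RNA held by the ribosomal protein genes as a whole did not differ between the genotypes beyond the spread between mice. They took 2.13%, 2.16% and 2.49% of reads in genes in the BrmKO libraries, against 2.27%, 2.02% and 2.54% in the WT libraries. The means were 2.26 ± 0.202% in BrmKO and 2.27 ± 0.261% in WT (SD, n = 3 each), and the ranges overlapped. The small subunit took 0.952 ± 0.108% in BrmKO and 0.986 ± 0.140% in WT. This share includes Rps3a1, which had 253 CPM in BrmKO and 584 CPM in WT and is treated apart below. The large subunit took 1.31 ± 0.0945% in BrmKO and 1.29 ± 0.121% in WT. The highest value of each genotype was that of replicate 3.

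To compare genes with each other, levels were divided by the length of the mRNA. On this scale the members had a median of 340.4 CPM per kilobase in BrmKO and 347 in WT. They spread over 43.7 to 1309 CPM per kilobase in BrmKO and 47.0 to 1273 in WT. The median was 376 in BrmKO and 380.4 in WT for the small subunit, and 291 in BrmKO and 294 in WT for the large.

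The order of the levels was nearly the same in both genotypes. Among the 72 members other than Rps3a1, no gene moved by more than 4 places in the ranking of all members, and 67 moved by 2 or fewer. In the small subunit the highest levels were those of Rps19, the gene most often mutated in Diamond-Blackfan anaemia, and Rps18, a protein of the subunit head. Rps19 stood at 1072 ± 152 CPM per kilobase in BrmKO and 1102 ± 196 CPM per kilobase in WT (SD, n = 3 each). Rps18 stood at 984 ± 138 CPM per kilobase in BrmKO and 975 ± 155 CPM per kilobase in WT. Their spreads overlapped, but Rps19 was above Rps18 in every library. The lowest were Rps21 with 96.3 ± 18.1 CPM per kilobase in BrmKO and 96.2 ± 14.6 CPM per kilobase in WT, and Rps20 with 48.2 ± 3.75 CPM per kilobase in BrmKO and 47.0 ± 6.38 CPM per kilobase in WT. The low value of Rps20 per kilobase rests on an annotated mRNA of 3706 bases, and its level in CPM, 179 in BrmKO and 174 in WT, was above that of Rps21 at 37.9 in both.

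In the large subunit Rpl13 was highest, with 1309 ± 62.0 CPM per kilobase in BrmKO and 1273 ± 103 CPM per kilobase in WT. Rplp0, which anchors the stalk that recruits elongation factors, followed with 840.4 ± 16.9 CPM per kilobase in BrmKO and 815 ± 44.97 CPM per kilobase in WT. The lowest were Rpl27a, with 90.2 ± 4.97 CPM per kilobase in BrmKO and 86.2 ± 6.35 CPM per kilobase in WT, and Rpl35, a protein near the exit of the peptide tunnel, with 43.7 ± 9.13 CPM per kilobase in BrmKO and 48.8 ± 12.4 CPM per kilobase in WT. The low value of Rpl27a rests on an annotated mRNA of 1158 bases. Its level in CPM, 104 in BrmKO and 99.8 in WT, was above that of Rpl30 at 58.2 and 57.6. For Rpl35, 66.2% of the exon bases overlap another annotated gene, the largest overlap among the members, and the files set reads that are ambiguous between genes apart.

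**Figure D1:**
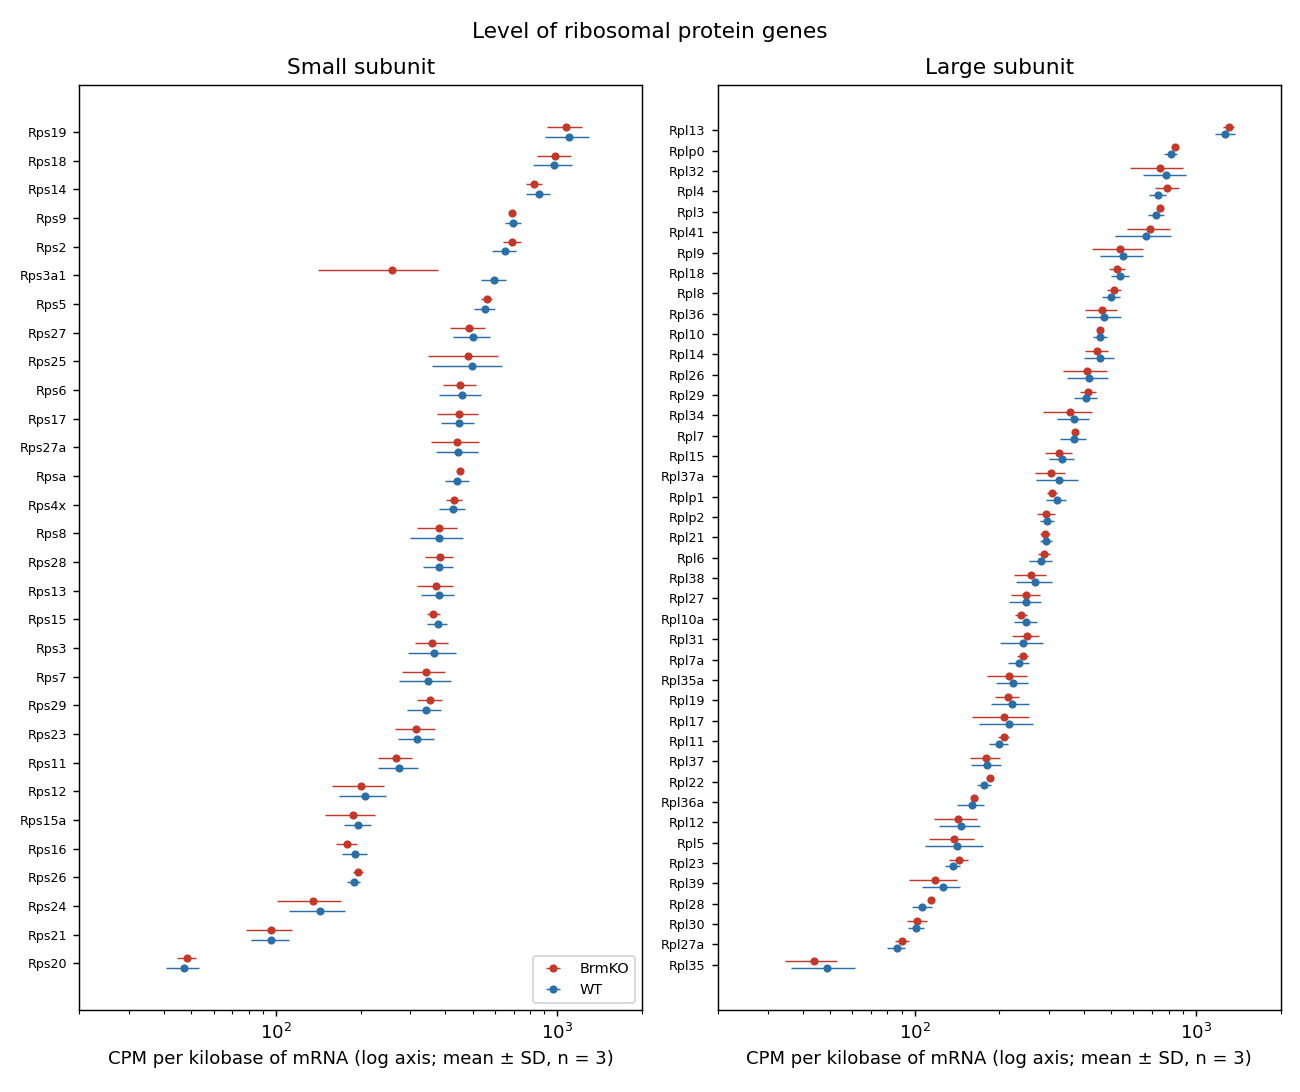
Level of the members, leaving out those not reported here, in CPM per kilobase of mRNA on a log axis, as mean ± SD over 3 libraries, BrmKO above WT for each gene, in order of the WT mean within each subunit. The 2 genotypes lie on each other from Rpl13 (1309 in BrmKO and 1273 in WT) down to Rpl35 (43.7 in BrmKO and 48.8 in WT), and Rps3a1 is the gene that departs (259 in BrmKO and 598 in WT).

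Against this background the genotypes differed little gene by gene. Of 15691 genes tested, 22 passed at an adjusted p under 0.05 (0.14%), 918 had an unadjusted p under 0.05 (5.85%), and in 1735 the groups did not overlap (11.1%). All 73 members passed the low-count filter. None of them passed by edgeR's quasi-likelihood test or by DESeq2. A single member, Rps3a1, had an unadjusted p under 0.05, and it was also the single member whose groups did not overlap. Each count of 1 among 73 members lies under the 5.85% and 11.1% of all genes tested. Without BrmKO replicate 3, Rps3a1 alone passed.

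The log2 fold changes of the members centred on zero. Their median was -0.01, and the median over all genes tested was also -0.01. Among the 72 members other than Rps3a1, 31 were above 0 and 41 below, between -0.16 for Rpl35 and 0.11 for Rpl4, and the smallest unadjusted p was 0.303. Of these, 70 lay within 0.1 of zero on the log2 scale, or 97.2%, against 59.2% of the 9456 tested genes at 10 CPM or more. Their median standard error was 0.12, as in those genes. The members shifted together by library and are not independent, so the 97.2% is a description only. The 95% intervals of 69 of the 72 lay within 0.5 of zero, a change of 1.41-fold, and those of 17 within 0.25, a change of 1.19-fold. The widest intervals reached -0.60 for Rpl35 and 0.47 for Rps25, so changes smaller than these bounds are not excluded. Leaving out a library moved the members' median between -0.11, without BrmKO replicate 3, and 0.09, without WT replicate 3.

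**Figure D2:**
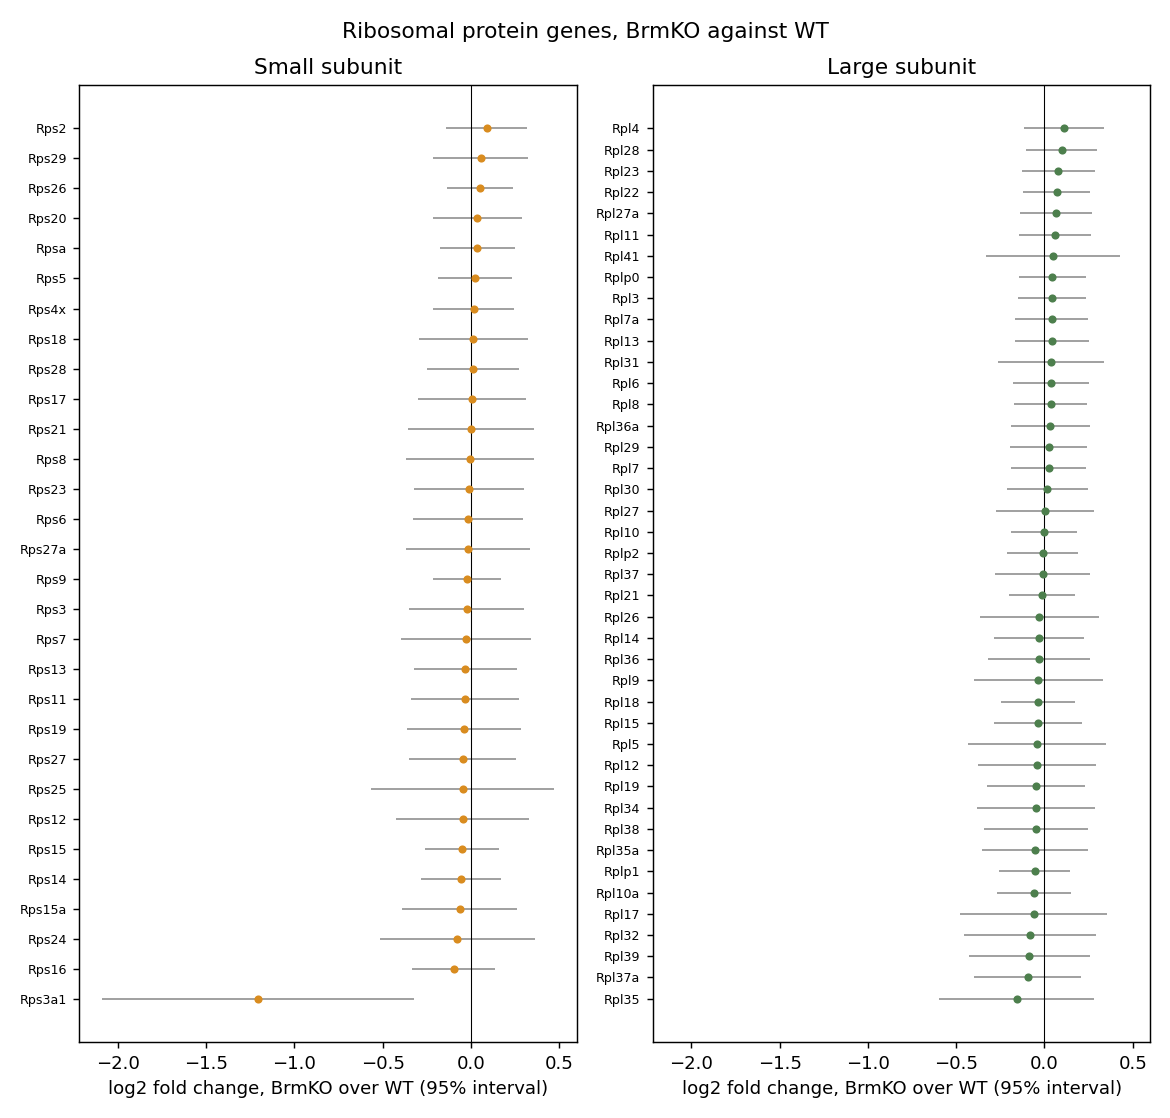
Log2 fold change of the members, leaving out those not reported here, BrmKO over WT, with its 95% interval, small subunit on the left and large subunit on the right. All points drawn other than Rps3a1 lie between -0.16 and 0.11 with intervals that cover 0, and Rps3a1 lies at -1.21 with an interval of -2.09 to -0.32.

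In the small subunit, Rps6 is the substrate by which S6 kinase activity is usually read. It had 372, 363 and 459 CPM in the BrmKO libraries, against 387, 341 and 477 CPM in the WT libraries, and its log2 fold change was -0.01 ± 0.14 (95% interval -0.33 to 0.30). The groups overlapped, and replicate 3 was the highest of each. Beside Rps3a1, the smallest p-values of this subunit belonged to Rps16, Rps2 and Rps26.

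Rps16, whose tail reaches the tRNA in the decoding centre, had 185, 194 and 217 CPM in the BrmKO libraries, against 228, 188 and 222 CPM in the WT libraries (log2 fold change -0.10 ± 0.11, unadjusted p = 0.378). Rps2 lies at the entry of the mRNA channel and had 731, 711 and 631 CPM in the BrmKO libraries, against 724, 619 and 605 CPM in the WT libraries (0.09 ± 0.10, unadjusted p = 0.402). Rps26 lies at the exit of the mRNA channel and had 128, 133 and 139 CPM in the BrmKO libraries, against 133, 121 and 132 CPM in the WT libraries (0.05 ± 0.08, unadjusted p = 0.546). In each of the 3 genes the groups overlapped. The adjusted p was 0.999 for every member other than Rps3a1 (edgeR, Benjamini-Hochberg over 15691 genes).

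In the large subunit, Rpl3 lies close to the peptidyl transferase centre. It had 1000.3, 1003 and 1019.7 CPM in the BrmKO libraries, against 966, 918 and 1048 CPM in the WT libraries, with a log2 fold change of 0.04 ± 0.09 (95% interval -0.15 to 0.24). Its BrmKO libraries differed little from each other, and they lay within the range of the WT libraries. Among the smallest p-values of the large subunit were those of Rpl28, Rpl4 and Rpl23, none of which passed.

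Rpl28 had 87.6, 90.6 and 86.0 CPM in the BrmKO libraries, against 88.8, 82.1 and 75.8 CPM in the WT libraries (0.10 ± 0.09, unadjusted p = 0.303). Rpl4, which lines the peptide tunnel, had 1263, 1304 and 1080.1 CPM in the BrmKO libraries, against 1193, 1141 and 1045 CPM in the WT libraries (0.11 ± 0.10, unadjusted p = 0.307). Rpl23, on the face that meets the small subunit, had 158, 161 and 139 CPM in the BrmKO libraries, against 154, 143 and 137 CPM in the WT libraries (0.08 ± 0.09, unadjusted p = 0.421). The groups overlapped in all 3, and replicate 3 was the lowest of each genotype in all 3, the opposite of most members.

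The stalk proteins were as close. Rplp0 had 1139, 1165 and 1119.6 CPM in the BrmKO libraries, against 1149, 1036 and 1134 CPM in the WT libraries (0.04 ± 0.08). Rplp1 had 159, 155 and 147 CPM in the BrmKO libraries, against 171, 146 and 162 CPM in the WT libraries (-0.06 ± 0.09). Rplp2 had 114, 126 and 131 CPM in the BrmKO libraries, against 129, 117 and 129 CPM in the WT libraries (-0.01 ± 0.09). The groups overlapped in each.

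Genes mutated in Diamond-Blackfan anaemia were looked at as a subset because of their part in blood formation. None of the 9 passed, none had an unadjusted p under 0.05, and their log2 fold changes lay between -0.08 and 0.06 with a median of -0.03. The list includes Rps10, which is under the level set for members. Rps19 had 627, 620.1 and 789.6 CPM in the BrmKO libraries, against 660.0, 596 and 836 CPM in the WT libraries (-0.04 ± 0.14). Rps24 had 182, 192 and 284 CPM in the BrmKO libraries, against 222, 185 and 288 CPM in the WT libraries (-0.08 ± 0.20). In both genes replicate 3 was the highest library of each genotype and the groups overlapped.

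Rpl5 and Rpl11 form, with 5S ribosomal RNA, the particle that binds MDM2 and stabilises p53 when ribosome assembly is disturbed. Rpl5 had 247, 257 and 341 CPM in the BrmKO libraries, against 261, 243 and 367 CPM in the WT libraries (-0.04 ± 0.17). Rpl11 had 168, 169 and 182 CPM in the BrmKO libraries, against 169, 151 and 177 CPM in the WT libraries (0.06 ± 0.09). Neither passed, and the groups overlapped in both.

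Several members with roles of their own in blood or in development were also close. Rps14, whose loss underlies the anaemia of the 5q- syndrome in people, had 486, 466 and 529 CPM in the BrmKO libraries, against 547, 455 and 538 CPM in the WT libraries (-0.05 ± 0.10). Rpsa, also known as the laminin receptor, had 731, 713 and 724 CPM in the BrmKO libraries, against 723, 628 and 763 CPM in the WT libraries (0.04 ± 0.09). Rps27a, which is made as a fusion with ubiquitin, had 246, 252 and 344 CPM in the BrmKO libraries, against 277, 239 and 335 CPM in the WT libraries (-0.02 ± 0.16). The groups overlapped in all 3, and Rpsa varied less among the BrmKO libraries than the other 2 genes did.

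In the large subunit, Rpl22, which developing T cells of the mouse require, had 88.6, 87.6 and 87.3 CPM in the BrmKO libraries, against 83.3, 79.0 and 88.7 CPM in the WT libraries (0.07 ± 0.08). Rpl38, which the mouse needs for the translation of Hox mRNAs in the embryo, had 80.9, 84.3 and 103 CPM in the BrmKO libraries, against 89.9, 80.2 and 107 CPM in the WT libraries (-0.05 ± 0.13). Rpl10, a late-joining protein recurrently mutated in human T-cell leukaemia, had 368, 358 and 366 CPM in the BrmKO libraries, against 388, 357 and 348 CPM in the WT libraries (-0.0016 ± 0.08). The groups overlapped in each of the 3.

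Rps3a1 was the exception among the 73 members, and its reads are given with those of its copies. Rps3a1 (ENSMUSG00000028081.6, chr3:86137940-86142702, minus strand, GRCm38) encodes a small-subunit protein at the mRNA exit site. Rps3a2 (ENSMUSG00000062611.4, chr14:88123017-88123808, minus strand) and Rps3a3 (ENSMUSG00000059751.7, chr13:108670603-108671397, plus strand) are annotated as processed pseudogenes. Rps3a2 differed from the 795-base coding sequence of Rps3a1 by 4 substitutions over 792 bases, and Rps3a3 by 9 over 795. The copies share 2 of these, T216C and T534C, with the Rps3a1 base first and positions counted from 1 at the A of its ATG. The GENCODE M21 transcripts around both positions are shown because reads that lie between the differences match all 3 genes, with the base that differs from Rps3a1 in capitals. The first 3 lines cover coding bases 187 to 246.
Rps3a1: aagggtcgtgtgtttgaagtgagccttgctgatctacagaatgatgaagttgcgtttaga
Rps3a2: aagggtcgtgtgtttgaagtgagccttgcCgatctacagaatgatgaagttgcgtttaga
Rps3a3: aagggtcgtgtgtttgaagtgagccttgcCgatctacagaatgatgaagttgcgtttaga
The next 3 lines cover coding bases 505 to 564.
Rps3a1: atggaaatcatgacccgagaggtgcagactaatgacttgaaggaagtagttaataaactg
Rps3a2: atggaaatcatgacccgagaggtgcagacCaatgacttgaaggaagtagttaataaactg
Rps3a3: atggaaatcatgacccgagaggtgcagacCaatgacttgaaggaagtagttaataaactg
In both windows the copies carry the same base, so a read within a window can tell Rps3a1 from the copies and not the copies from each other. Outside the windows Rps3a3 alone differs at T260C and G582T, so a longer read that reaches these could tell the copies apart.

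Rps3a1 was lower in every BrmKO library than in any WT library, and both copies were higher. Rps3a1 had 9399, 9360 and 4117 reads in the BrmKO libraries, against 21589, 16883 and 18096 reads in the WT libraries, or 253 ± 116 CPM in BrmKO and 584 ± 59.3 CPM in WT (SD, n = 3 each). BrmKO replicate 3 had less than the other BrmKO libraries, at 119.7 CPM against 314 and 326 CPM. The log2 fold change was -1.21 ± 0.37 (95% interval -2.09 to -0.32), and it did not pass (edgeR, adjusted p = 0.682, unadjusted p = 0.0153).

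Leaving out BrmKO replicate 3 gave -0.87 ± 0.11 for Rps3a1, which passed (edgeR, adjusted p = 0.0346). Across all alternatives its adjusted p lay between 0.0346 and 0.999, the highest being without WT replicate 1, and DESeq2 gave 0.141.

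Rps3a3 had 2880, 2795 and 7531 reads in the BrmKO libraries, against 17, 14 and 18 reads in the WT libraries. The groups lay far apart, with a log2 fold change of 8.08 ± 0.48 (edgeR, adjusted p = 0.00136). This call was lost without WT replicate 2 (adjusted p = 0.0521), without WT replicate 3 (adjusted p = 0.0564) and with no low-count filter (adjusted p = 0.0574). Rps3a2 had 765, 777 and 1907 reads in the BrmKO libraries, against 157, 137 and 153 reads in the WT libraries, a log2 fold change of 2.96 ± 0.30 (edgeR, adjusted p = 0.00646). The call of Rps3a2 was lost without WT replicate 1 (adjusted p = 0.0729) and without WT replicate 2 (adjusted p = 0.0799).

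The sum over Rps3a1, Rps3a2 and Rps3a3 varied far less among the BrmKO libraries than Rps3a1 did. It was 436, 451 and 394 CPM in the BrmKO libraries, against 601, 524 and 642 CPM in the WT libraries, that is 427 ± 29.3 CPM in BrmKO and 589 ± 59.96 CPM in WT (SD, n = 3 each). Rps3a1 made up 72.1%, 72.4% and 30.4% of this sum in the BrmKO libraries, against 99.2%, 99.1% and 99.1% in the WT libraries. BrmKO replicate 3, with the least Rps3a1, had the most of both copies. Within each genotype the copies kept close to a fixed ratio, with 3.76, 3.60 and 3.95 Rps3a3 reads per Rps3a2 read in the BrmKO libraries, against 0.108, 0.102 and 0.118 in the WT libraries.

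With the reads of Rps3a1 and all its copies summed, the log2 fold change was -0.46 ± 0.10 (95% interval -0.69 to -0.23), which did not pass (edgeR, adjusted p = 0.231). The 4 further copies had 227 reads over all 6 libraries. The counting leaves out reads that fit more than 1 place, so each count holds only reads with a single best place. The files hold no sequence of the mice, so a change in expression of the 3 genes and a difference in sequence between the mice, which could move reads among them, cannot be told apart here.

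**Figure D3:**
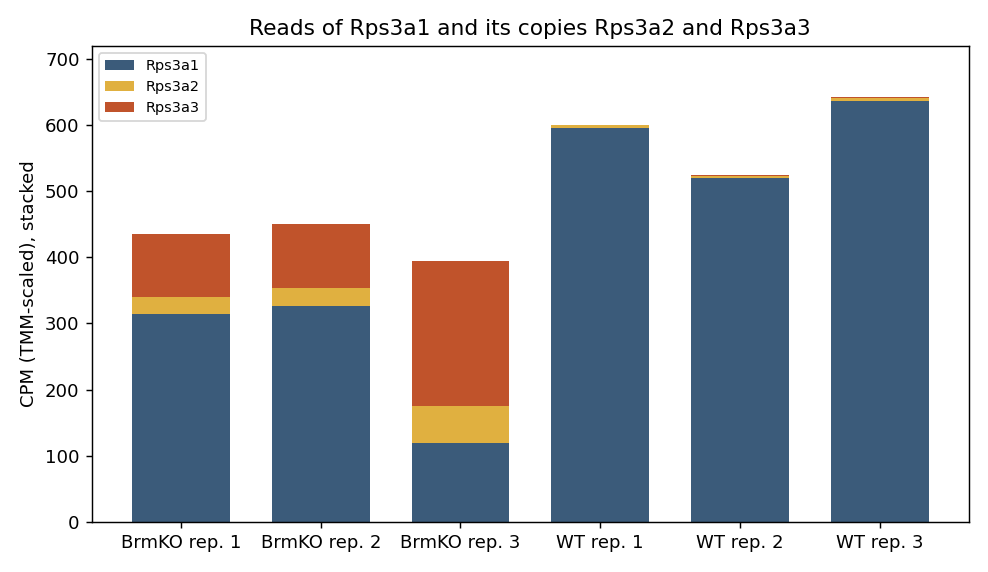
CPM of Rps3a1, Rps3a2 and Rps3a3 stacked for each library, BrmKO on the left and WT on the right. In WT almost the whole bar is Rps3a1 (99.2%, 99.1% and 99.1%), and in BrmKO it fills 72.1%, 72.4% and 30.4% of a bar that reaches 394 to 451 CPM.

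Copies are common in this family, and in few other members did they hold many reads with a single best place. At least 1 near-identical gene was found for 70 of the 73 members, 605 in all, with a median of 6 and up to 61 for a member. A copy was a non-overlapping gene with a longest transcript at least 95% identical across 50% or more of the member's transcript or of its own. The copies' reads came to a median of 1.09% of the member's own, and to 5% or more in 5 members. Reads that fit a member and a copy equally were left out, so these shares cannot show how many reads were lost to copies. Beside Rps3a1, a single copy held 5% or more for Rpl41 and Rpl35.

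Gm10076, the copy of Rpl41, had 1988, 1890 and 3102 reads in the BrmKO libraries, against 2519, 1888 and 2669 reads in the WT libraries (0.01 ± 0.18). Rpl41, a very small protein at the interface of the subunits, had 264, 278 and 361 CPM in the BrmKO libraries, against 272, 237 and 363 CPM in the WT libraries (0.05 ± 0.17). Gm2000, the copy of Rpl35, had 169, 132 and 258 reads in the BrmKO libraries, against 207, 166 and 243 reads in the WT libraries (-0.12 ± 0.27). Rpl35 itself had 34.9, 38.0 and 51.2 CPM in the BrmKO libraries, against 41.7, 37.3 and 59.5 CPM in the WT libraries (-0.16 ± 0.20). None of these 4 passed, and the groups overlapped in each.

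The spread within genotypes was larger than the difference between them, and it was shared across the family. Replicate 3 was the highest BrmKO library in 59 of the 72 members other than Rps3a1 and the highest WT library in 56. WT replicate 2 was the lowest WT library in 66. The median deviation of a member from its own mean over the 6 libraries was -0.11, -0.07 and 0.15 in the BrmKO libraries, against 0.00, -0.17 and 0.18 in the WT libraries, on the log2 CPM scale. The 75 mitochondrial ribosomal protein genes, made for a separate ribosome, followed the same order within each genotype, at -0.12, -0.04 and 0.10 in the BrmKO libraries, against 0.02, -0.11 and 0.18 in the WT libraries.

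**Figure D4:**
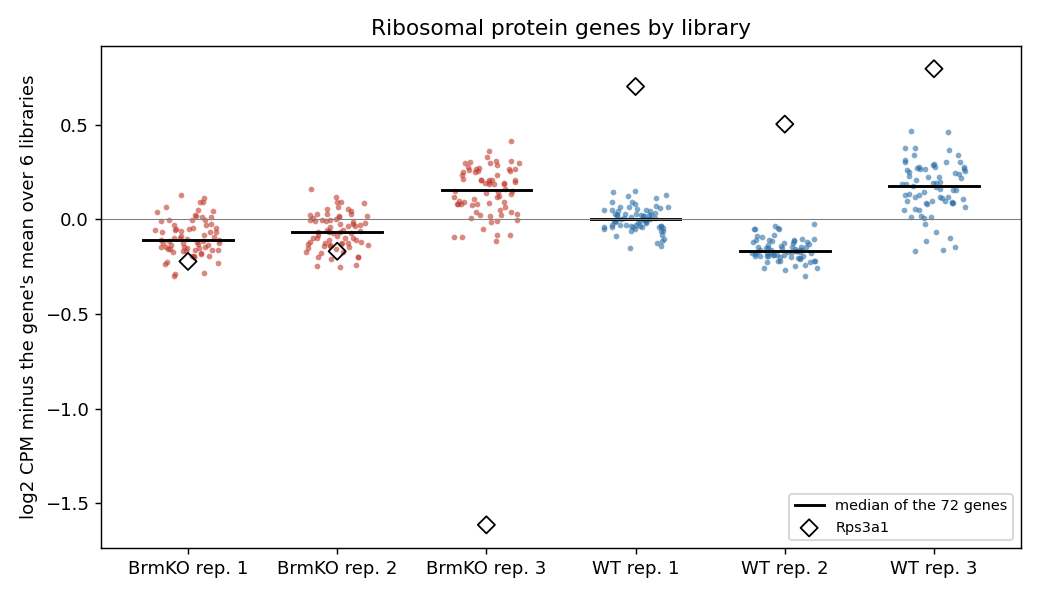
Log2 CPM of each member minus its own mean over the 6 libraries, a point per gene, with the median of the 72 members other than Rps3a1 as a bar and Rps3a1 as a diamond. The medians are highest in replicate 3 of both genotypes (0.15 in BrmKO and 0.18 in WT), and Rps3a1 lies apart from the other members in BrmKO replicate 3 and in the WT libraries.

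The genes that were high or low in replicate 3 were largely the same in both genotypes. The difference between replicate 3 and the mean of the other replicates had a median of 0.26 in BrmKO and 0.25 in WT on the log2 CPM scale, over the 72 genes. It was above 0 in both genotypes for 61 genes and below 0 in both for 6. Across the 72 genes the differences of the 2 genotypes had r = 0.86 and a Spearman rho of 0.83. Genes of a library share its preparation and are not independent replicates, so these values are a description.

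The shift had a median of 0.33 in BrmKO and 0.32 in WT in the small subunit, and of 0.16 in BrmKO and 0.22 in WT in the large. The largest shift was that of Rps25, a protein needed by some viral internal ribosome entry sites, at 0.65 in BrmKO and 0.66 in WT. Rps24 followed in BrmKO, with 0.60 in BrmKO and 0.51 in WT, and Rpl17, near the tunnel exit, had 0.54 in BrmKO and 0.50 in WT. At the other end stood Rpl4, with -0.25 in BrmKO and -0.16 in WT, and Rps2, with -0.19 in BrmKO and -0.15 in WT. Rps25, Rps24, Rpl35 and Rpl5 also had the largest coefficients of variation in WT within their subunits, between 22.5% and 28.1%, against a median over the members of 10.7% in BrmKO and 12.3% in WT.

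**Figure D5:**
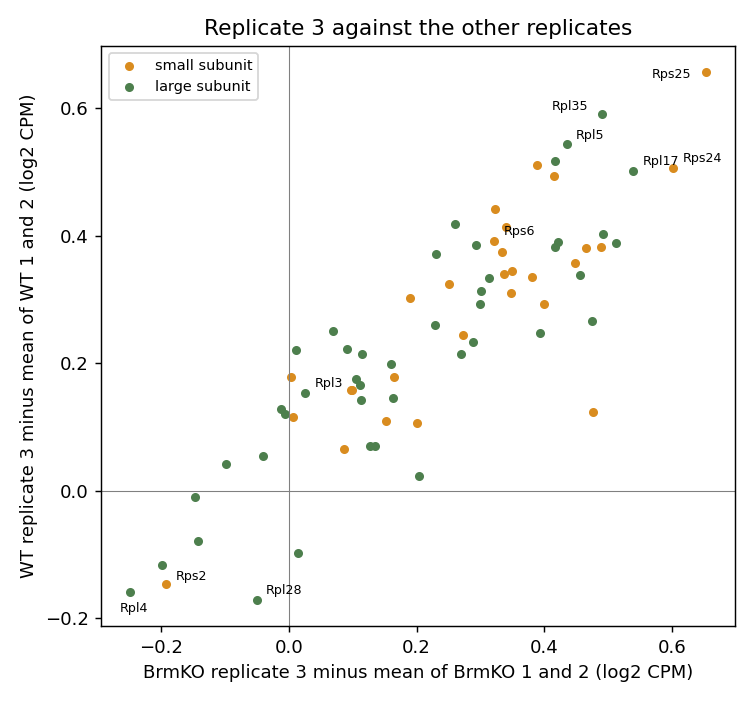
Log2 CPM of replicate 3 minus the mean of replicates 1 and 2, BrmKO on the x axis and WT on the y axis, a point for each of the 72 members other than Rps3a1, coloured by subunit. Of the points, 61 lie above 0 in both genotypes and 6 below 0 in both, from Rpl4 (-0.25 in BrmKO and -0.16 in WT) to Rps25 (0.65 in BrmKO and 0.66 in WT).

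Other values moved with replicate 3. Beside the higher share of reads in no counted feature, the summed level of 6 neutrophil markers was 7.12, 6.55 and 21.2 CPM in the BrmKO libraries, against 9.11, 5.78 and 30.7 CPM in the WT libraries. That of 6 erythroid markers was 117, 175 and 182 CPM in the BrmKO libraries, against 137, 117 and 211 CPM in the WT libraries. B lineage markers summed to 63.7, 58.6 and 72.4 CPM in the BrmKO libraries, against 74.6, 65.5 and 78.9 CPM in the WT libraries. These 3 sums were highest in replicate 3 of both genotypes. By gene, replicate 3 was the highest library of both genotypes in all 6 neutrophil markers, in 3 erythroid markers and in 1 B lineage marker.

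Other marker sums were lowest in replicate 3. Megakaryocyte and platelet markers summed to 552, 555 and 394 CPM in the BrmKO libraries, against 695, 772 and 589 CPM in the WT libraries. Most of this sum was Itga2b, with 414, 412 and 258 CPM in the BrmKO libraries, against 506, 569 and 340 CPM in the WT libraries. Of the 6 markers, replicate 3 was the highest BrmKO library in 1 and the highest WT library in 3. Monocyte and macrophage markers summed to 229, 251 and 215 CPM in the BrmKO libraries, against 293, 275 and 238 CPM in the WT libraries. Csf1r was lowest in replicate 3 of both, with 116, 118 and 82.4 CPM in BrmKO and 144, 145 and 109 CPM in WT. Ly6c2 was not, with 83.4, 103 and 101 CPM in BrmKO and 118, 98.3 and 104 CPM in WT. Of these 6 markers, replicate 3 was the highest BrmKO library in 2 and the highest WT library in 1. In the remaining lists replicate 3 did not stand at the same end in both genotypes. Stromal and endothelial markers summed to 44.5, 20.6 and 96.6 CPM in the BrmKO libraries, against 203, 74.7 and 42.0 CPM in the WT libraries. T and NK markers summed to 243, 235 and 242 CPM in the BrmKO libraries, against 263, 231 and 256 CPM in the WT libraries. Most of that sum was Nkg7, with 235, 225 and 234 CPM in the BrmKO libraries, against 258, 225 and 250 CPM in the WT libraries. Each list has 6 markers, and Cd3e of the T and NK list was the single marker at 0 reads in all libraries. The part of these sums in the shift of the ribosomal protein genes was not tested. In bulk samples, fewer cells of a type and less RNA per cell cannot be told apart.

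Other genes of translation were set beside the members. Of 15 genes of elongation and other TOP mRNAs, all were tested, none passed and none had an unadjusted p under 0.05, with 8 above 0, 7 below and a median log2 fold change of 0.01. Eef1a1, which brings aminoacyl-tRNA to the ribosome, had 2694, 2552 and 2492 CPM in the BrmKO libraries, against 2479, 2347 and 2584 CPM in the WT libraries (0.06 ± 0.09). The 3 with the smallest p were Eif3f (0.14 ± 0.09), Pabpc1 (0.19 ± 0.15) and Eif3e (-0.15 ± 0.14), 2 subunits of initiation factor eIF3 and the poly(A) binding protein. The summed level of these 15 genes was 7541, 7450.4 and 7024 CPM in the BrmKO libraries, against 7314, 6915 and 7081 CPM in the WT libraries. Gene by gene, replicate 3 was the highest BrmKO library in 7 of the 15 and the highest WT library in 8, with 6 genes in common.

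Of 11 regulators of TOP mRNAs, including Mtor, Larp1 and the S6 kinases, none passed and 5 were above 0 and 6 below. Tia1, which binds TOP mRNAs under amino acid starvation, was the single one with an unadjusted p under 0.05. It had 111, 119.7 and 124 CPM in the BrmKO libraries, against 134, 136 and 137 CPM in the WT libraries, so the groups did not overlap, but the log2 fold change of -0.20 ± 0.08 did not pass (edgeR, adjusted p = 0.808). Larp4 (-0.15 ± 0.10) and Cnbp (-0.12 ± 0.09) had the next smallest p. Of 7 dedicated chaperones of ribosomal proteins, 6 were tested and none passed, with Grwd1 at -0.07 ± 0.11, Aamp at 0.08 ± 0.12 and Heatr3 at -0.07 ± 0.10. Pdcd2 is listed at 0 reads in all 6 libraries.

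Rack1 and Fau, components of the cytosolic ribosome whose symbols follow another pattern, did not pass either. Rack1, a signalling scaffold on the small subunit, had 568, 551 and 583 CPM in the BrmKO libraries, against 597, 509.5 and 618 CPM in the WT libraries (-0.02 ± 0.10). Fau, made as a fusion with a ubiquitin-like protein, had 106, 111 and 108 CPM in the BrmKO libraries, against 105, 94.4 and 118 CPM in the WT libraries (0.04 ± 0.10). The groups overlapped in both.

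Paralogs of ribosomal protein genes were mostly low. Of 9 listed, 7 were tested and none passed or had an unadjusted p under 0.05. Rpl10l, the paralog of Rpl10 used in the testis, is listed at 0 reads in all libraries, and Rpl39l had 17 reads in BrmKO and 9 in WT. Rps27l, a p53 target in people, had 101, 101 and 154 CPM in the BrmKO libraries, against 136, 108 and 158 CPM in the WT libraries (-0.18 ± 0.19). Rpl7l1 had 273, 271 and 299 CPM in the BrmKO libraries, against 258, 265 and 325 CPM in the WT libraries (-0.01 ± 0.11). Rps27l was lower in BrmKO replicates 1 and 2 than in any WT library, and the groups of Rpl7l1 overlapped.

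Rpl22l1, the paralog that Rpl22 represses in the mouse, had 30.02, 43.2 and 78.1 CPM in the BrmKO libraries, against 25.5, 28.5 and 56.8 CPM in the WT libraries. It was highest in replicate 3 of each genotype, and its log2 fold change of 0.45 ± 0.45 ran from -0.01 without BrmKO replicate 3 to 0.90 without WT replicate 3. The other paralogs were at low levels, with log2 fold changes of 0.06 ± 0.53 for Rpl3l, -0.20 ± 0.34 for Rpl36al, 0.11 ± 0.17 for Rps4l and -0.20 ± 0.41 for Rps27rt. Of these, Rps4l is annotated as a transcribed processed pseudogene.

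Among the mitochondrial ribosomal protein genes, none of the 75 passed, 2 had an unadjusted p under 0.05, 18 were above 0 and 57 below, and their median log2 fold change was -0.06. Their summed level was 4215, 4392 and 4772 CPM in the BrmKO libraries, against 4609, 4210 and 5065 CPM in the WT libraries, and the groups overlapped.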

How the data were processed

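The authors deposited raw read counts by Ensembl gene, in a file for each of 6 libraries (3 BrmKO, 3 WT). Per the submitters' processing notes, the tools were bcl2fastq, FastQC, STAR, HTSeq and DESeq2 on build GRCm38. Versions, strand setting and annotation release were not given in the sources used here. The 5 entries that name no gene entered neither library sizes nor tests. Among them, reads in no counted feature made up 5.79% to 9.29% of a library, and reads aligned to several places 4.38% to 5.27%. Symbols and positions came from GENCODE M21, matched on Ensembl identifier for 55227 of 55487 genes.

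The members and lists were chosen with earlier results of these data known. The test was edgeR's quasi-likelihood test (edgeR 4.0.16, limma 3.58.1, R 4.3.3) on TMM-scaled counts with robust dispersion, fitted on all 15691 genes that filterByExpr kept, with genotype alone. P-values were adjusted over all of these genes by Benjamini-Hochberg, and 0.05 was the threshold. The script was tested on simulated data. CPM use TMM-scaled library sizes, and the shares of reads are unscaled. Log2 fold changes are BrmKO over WT ± SE, and 95% intervals are those of the fit. Division by kilobase used the shortest principal mRNA of each gene in GENCODE M21. Copies were searched with blastn 2.17.0. Reads carry no molecular identifiers, so they are not independent molecules. P-values set the difference between genotypes against the spread between libraries. Each mouse gave a single library, so this spread also holds sorting and preparation.

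Genes were named by rule: Rpl3, Rps6, Rps3a1 and Smarca2; members that passed; per subunit the 4 smallest p, the 2 highest and 2 lowest levels per kilobase and the 2 largest WT coefficients of variation; copies with at least 5% of a member's reads; and the 3 smallest p of each translation list, with all paralogs and components. The own results of some genes that the rule names are not reported here. Other genes named were chosen after their values were seen. Alternatives were DESeq2 1.42.0, RLE factors, TMM factors without the members, no low-count filter, summed copies, other level minimums, another denominator of the share, a replicate block, and leaving out each library.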

Additional observations from a re-analysis of the deposited data

How the results depend on the processing

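No ribosomal protein gene passed under any alternative tried, except Rps3a1 without BrmKO replicate 3, so that leaving out a library gave 0 to 1 called members. The number of genes called among all tested was 150 with DESeq2 and 58 with no low-count filter, against 22, and it ran from 6 (without WT replicate 2) to 36 (without WT replicate 3) when a library was left out. The log2 fold change of Rps3a1 ran from -1.43 to -0.87 over those fits. Among the other named genes, 22 changed sign under at least 1 alternative, nearly always with a library left out, and none of these had passed. Leaving out a library gave log2 fold changes of -0.13 to 0.13 for Rps6, -0.16 to 0.22 for Gm10076, -0.33 to 0.13 for Gm2000, -0.049 to 0.14 for Rps20, -0.16 to 0.13 for Rps21, -0.11 to 0.13 for Rps18, -0.16 to 0.11 for Rps19, -0.31 to 0.11 for Rps24, -0.30 to 0.21 for Rps25, -0.34 to 0.064 for Rpl35, -0.014 to 0.10 for Rpl13, -0.20 to 0.16 for Rpl5, -0.18 to 0.016 for Grwd1, -0.016 to 0.17 for Aamp, -0.15 to 0.036 for Heatr3, -0.36 to 0.50 for Rpl3l, -0.067 to 0.10 for Rpl7l1, -0.012 to 0.90 for Rpl22l1, -0.38 to 0.072 for Rpl36al, -0.085 to 0.26 for Rps4l, -0.039 to 0.12 for Fau and -0.097 to 0.035 for Rack1. Rps3a2 ran from 2.50 to 3.16 and Rps3a3 from 7.57 to 8.28. The replicate numbers are shared by the genotypes in the labels, and same-numbered libraries deviated together with correlations of 0.05, 0.01 and 0.19 over all genes. Differently numbered libraries had -0.20 to 0.17, so the highest value was that of the replicate 3 libraries. The numbers were not taken as pairs in the main fit. With a replicate block, 25 genes passed, no member did, Rps3a1 stood at -1.32 and Rps21 at -0.0036. With 3 mice per genotype the size that can be seen is limited: most intervals exclude changes above 1.41-fold and few exclude 1.19-fold.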
